A study of Homo sapiens with 12 samples.

Results

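The nucleolar factors of ribosome biogenesis described here are 60 human genes chosen by symbol, of which 54 were measured, with 74 probes among the 15025 probes of the deposited table. NPM1, GNL3, NOL10, UTP20, EBNA1BP2 and WDR43 are not analysed here. The list was put together with earlier pull-down results of these arrays known, among them those of NOP58, GNL2 and MDN1, so differences between pull-down and input are given as a description. RNA came from HEK293T, human embryonic kidney cells with the large T antigen of SV40, harvested 24 hours after the cells received a biotin-tagged synthetic microRNA duplex (200 pmol). There were 4 groups of 3 arrays: the miR-4307-3p pull-down, the miR-4307-3p input, the miR-3118-3p pull-down and the miR-3118-3p input. A pull-down is the RNA held back on streptavidin beads, which bind biotin, and all 4 groups come from transfected cells, so no untransfected cells and no control duplex are among the arrays used here.

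Ribosomes are built in the nucleolus, where RNA polymerase I copies ribosomal DNA into a long precursor. Small nucleolar ribonucleoproteins (snoRNPs) modify that precursor, 2'-O-methylation being the work of the box C/D class and pseudouridylation that of the box H/ACA class. The small subunit processome folds and cuts the part that becomes 18S rRNA, and a separate set of GTPases, ATPases and scaffold proteins matures the large subunit. A microRNA recognises mRNA mainly through its seed, bases 2 to 8 from the 5' end, and a tagged microRNA is used to recover the mRNAs bound to it.

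The mature sequences of both microRNAs, from RefSeq (GRCh38.p14), are shown because the pull-downs rest on them, with the seed in capitals. RefSeq names them without the 3p suffix of the labels, and each lies in the 3' part of its hairpin.
miR-4307-3p: aAUGUUUUuuccuguuucc
miR-3118-3p: uGUGACUGcauuaugaaaauucu
The mature miR-4307 has 19 bases and lies on chromosome 14 at 26908697 to 26908715, plus strand, in the gene MIR4307. The mature miR-3118 has 23 bases and is encoded by 4 genes, 3 of them on chromosome 15 and MIR3118-1 on chromosome 21. In the hairpins below the mature part is in capitals, at bases 56 to 74 of 84 for MIR4307 and bases 44 to 66 of 75 for MIR3118-2.
MIR4307 hairpin: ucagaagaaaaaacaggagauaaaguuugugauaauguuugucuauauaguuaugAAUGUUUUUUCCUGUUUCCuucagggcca
MIR3118-2 hairpin: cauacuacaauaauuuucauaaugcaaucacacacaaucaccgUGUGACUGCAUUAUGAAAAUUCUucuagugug
The seeds differ: a 7-base site paired with the miR-4307 seed reads AAAACAU, and one paired with the miR-3118 seed reads CAGUCAC. Sites in the mRNAs were not analysed here.

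Levels are the authors' deposited log2 values, and a difference is pull-down minus input in log2 units, given with its standard error (SE) from a limma fit over 9581 named genes and 12 arrays (n = 3 arrays per group). For each gene the fit takes 1 spread over all 4 groups, so its SE is the same for both pull-down comparisons and is not the spread of the compared arrays alone. A gene is called when its adjusted p (Benjamini-Hochberg over all 9581 genes) is under 0.05. The array medians lay between 7.53 and 7.59, so higher and lower describe a share among all measured RNA. Whether replicates were separate cultures is not in the labels, and p-values reflect only the spread among these arrays, which may be technical. Array 1 of the pull-down with miR-3118-3p (its replicate 1) stood apart, correlating with the other 2 at 0.963 and 0.968 over all probes, against 0.983 between those 2. The median SD of the members was 0.140 for the miR-4307-3p pull-down, 0.181 for its input, 0.295 for the miR-3118-3p pull-down and 0.162 for its input. Of 6 HEK293T markers (KRT8, KRT18, VIM, LIN28B, NEFL and NEFM) VIM and LIN28B were bright in the inputs, with miR-4307-3p input means of 12.2 and 10.4 and miR-3118-3p input means of 12.3 and 10.3, while KRT8, KRT18 and NEFL had input means between 6.57 and 6.69. NEFM lay in between, with input means of 8.16 for miR-4307-3p and 8.26 for miR-3118-3p. The 5 blood markers on the list were not analysed here. ALB of hepatocytes and COL1A1 of fibroblasts, the only markers of those lists used here, were dim in the inputs, at most 6.57.

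With miR-4307-3p, 12 of the 54 genes were called higher and 4 lower in the pull-down than in its input, where 8.04% and 6.11% of all genes were. With miR-3118-3p, 6 were called higher and 10 lower, where 12.7% and 10.9% of all genes were. The genes were listed with these contrasts known, so nothing is read from those counts. The median difference of the 54 genes was 0.08 with miR-4307-3p and -0.04 with miR-3118-3p, beside -0.02 and -0.00 over all genes. NAT10 and MDN1 were called higher with both microRNAs, NHP2, NOL7 and BOP1 were called lower with both, and 0 genes were called in opposite directions. With miR-4307-3p the 3 values of pull-down and input did not overlap for 28 of the 54 genes (39.1% of all genes), 21 with the pull-down higher (19% of all genes) and 7 with it lower (20.1%). With miR-3118-3p this held for 18 genes (34.8% of all genes), 6 higher (16.8%) and 12 lower (18%).

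The counts of lower calls moved when single arrays were left out. With miR-4307-3p, the 4 lower calls numbered 0 without pull-down replicates 2 or 3 or input replicates 1 or 2, and 2 without replicates 2 or 3 of the miR-3118-3p input, which enter through the shared spread. With miR-3118-3p, the 10 lower calls numbered 3 when pull-down replicate 2 was left out, 6 for input replicate 1, 2 for input replicate 2 and 3 for input replicate 3. The 6 higher calls with miR-3118-3p numbered 14 without pull-down replicate 1, the array that stood apart, and the lower calls then numbered 12.

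**Figure D1:**
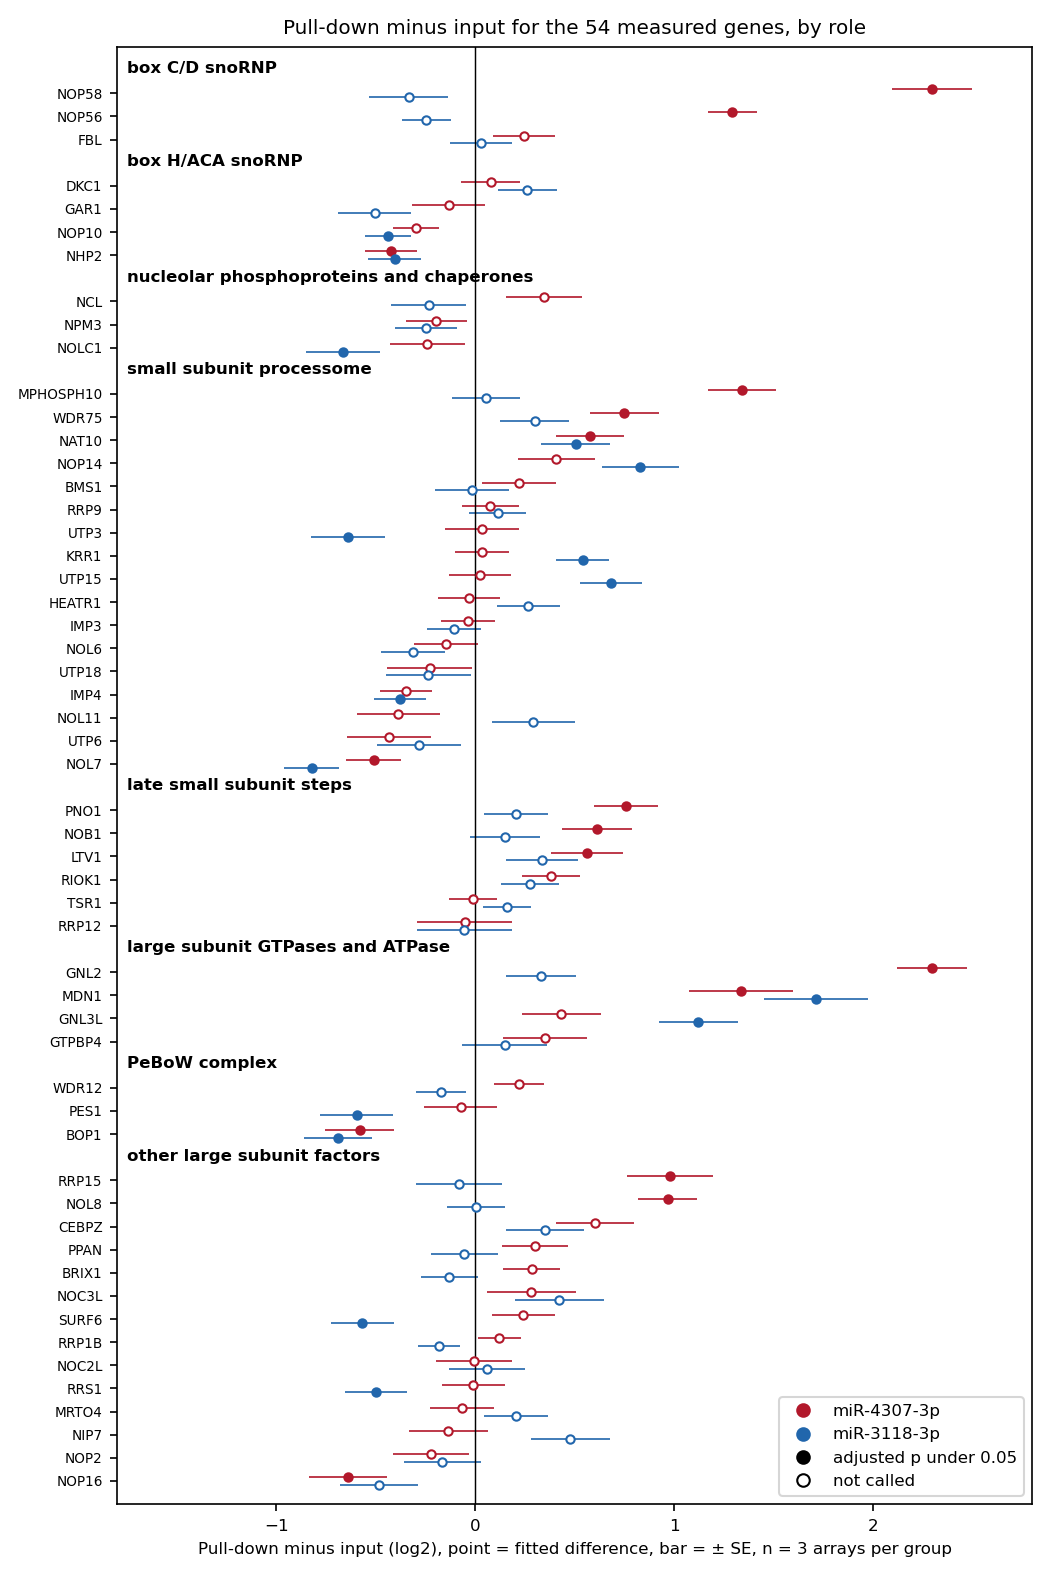
Pull-down minus input (log2, x axis) for the 54 measured genes grouped by role, red for miR-4307-3p and blue for miR-3118-3p, with bars of ± SE (n = 3 arrays per group) and filled points for called genes. NOP58 and GNL2 lie near 2.30 with miR-4307-3p and at -0.34 and 0.33 with miR-3118-3p, while MDN1 lies above 1.3 with both.

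The box C/D snoRNP genes held the highest value of all members, that of NOP58. NOP58 and its paralogue NOP56 encode core proteins of these particles, and FBL encodes fibrillarin, their methyltransferase. NOP58 stood at 12.57, 12.53 and 12.56 on the miR-4307-3p pull-down arrays, against 10.25, 10.29 and 10.22 in its input, a difference of 2.30 ± 0.20 (SE, n = 3 per group). The pull-down arrays agreed within a few hundredths and lay far above every input. The SE of 0.20 draws on all 12 arrays. The SD was 0.02 in this pull-down and 0.04 in its input, against 0.57 and 0.15 in those of miR-3118-3p. With miR-3118-3p, NOP58 stood at 9.45, 10.23 and 10.55 in the pull-down and at 10.43, 10.25 and 10.56 in the input, a difference of -0.34 ± 0.20 that was not called. Replicate 1 of that pull-down was the lowest of the 12 values, and the groups overlapped. Without that replicate the difference was -0.02.

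NOP56 behaved in the same direction as its paralogue in each pull-down. It stood at 12.74, 12.80 and 12.80 on the miR-4307-3p pull-down arrays and at 11.37, 11.47 and 11.62 in the input, a difference of 1.29 ± 0.12. Its other 2 probes gave 1.74 and 1.44. In the miR-3118-3p pull-down NOP56 stood at 11.44, 11.07 and 11.19, against 11.51, 11.51 and 11.41 in the input, a difference of -0.24 ± 0.12 that was not called, although it was without pull-down replicate 1, at -0.35. Every miR-4307-3p pull-down value of NOP56 lay above the 9 values of the other groups. FBL, at 11.45, 11.67 and 11.39 on the miR-4307-3p pull-down arrays and 11.22, 11.38 and 11.16 in the input, differed by 0.25 ± 0.16 and was not called, the groups just failing to overlap. With miR-3118-3p FBL differed by 0.03 ± 0.16, with pull-down values of 11.24, 10.95 and 11.47 and input values of 10.92, 11.27 and 11.38.

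The box H/ACA snoRNP genes had negative differences with both microRNAs, except DKC1, which had positive ones that were not called. They encode the pseudouridine synthase dyskerin (DKC1) and its partners NHP2, NOP10 and GAR1. NHP2 stood at 11.46, 11.53 and 11.35 on the miR-4307-3p pull-down arrays, against 11.92, 11.998 and 11.69 in the input, and at 11.74, 11.41 and 11.52 on the miR-3118-3p pull-down arrays, against 12.11, 11.89 and 11.88. Its differences of -0.42 ± 0.13 and -0.40 ± 0.13 were both called and close to the threshold. All 4 probes of NHP2 went down with both microRNAs, the other 3 by at most 0.12 with miR-3118-3p, and the mean of its probes was not called, at -0.36 with miR-4307-3p and -0.16 with miR-3118-3p. NOP10 stood at 11.62, 11.56 and 11.60 on the miR-4307-3p pull-down arrays and 11.94, 11.91 and 11.82 in the input (-0.30 ± 0.12, not called). With miR-3118-3p it stood at 11.46, 11.52 and 11.67 in the pull-down and 12.13, 11.86 and 11.97 in the input (-0.44 ± 0.12, called). The NOP10 groups did not overlap with either microRNA. The dimmer NOP10 probe gave -0.41 with miR-4307-3p and -0.36 with miR-3118-3p. In a fit over every probe the first of these was called lower and the second was not, the reverse of the brighter probe.

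GAR1 was not called with either microRNA by its brightest probe. It stood at 10.77, 10.37 and 10.22 on the miR-4307-3p pull-down arrays and 10.85, 10.57 and 10.33 in its input, and at 9.74, 10.23 and 10.34 on the miR-3118-3p pull-down arrays, against 10.51, 10.53 and 10.78. Its differences were -0.13 ± 0.18 and -0.50 ± 0.18, and its groups overlapped with miR-4307-3p only. The other 3 probes of GAR1, all dimmer, gave -0.59, -0.43 and -0.35 with miR-4307-3p and -0.65, -0.09 and -0.32 with miR-3118-3p. The mean of its 4 probes with miR-4307-3p was -0.37 and called lower, so this value depends on the probe. DKC1 stood at 10.97, 11.02 and 11.001 on the miR-4307-3p pull-down arrays, against 10.86, 10.98 and 10.91, and at 10.89, 11.19 and 11.51 on the miR-3118-3p pull-down arrays, against 10.75, 11.01 and 11.04. Its differences were 0.08 ± 0.15 and 0.26 ± 0.15, not called, and its groups overlapped with both microRNAs.

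**Figure D2:**
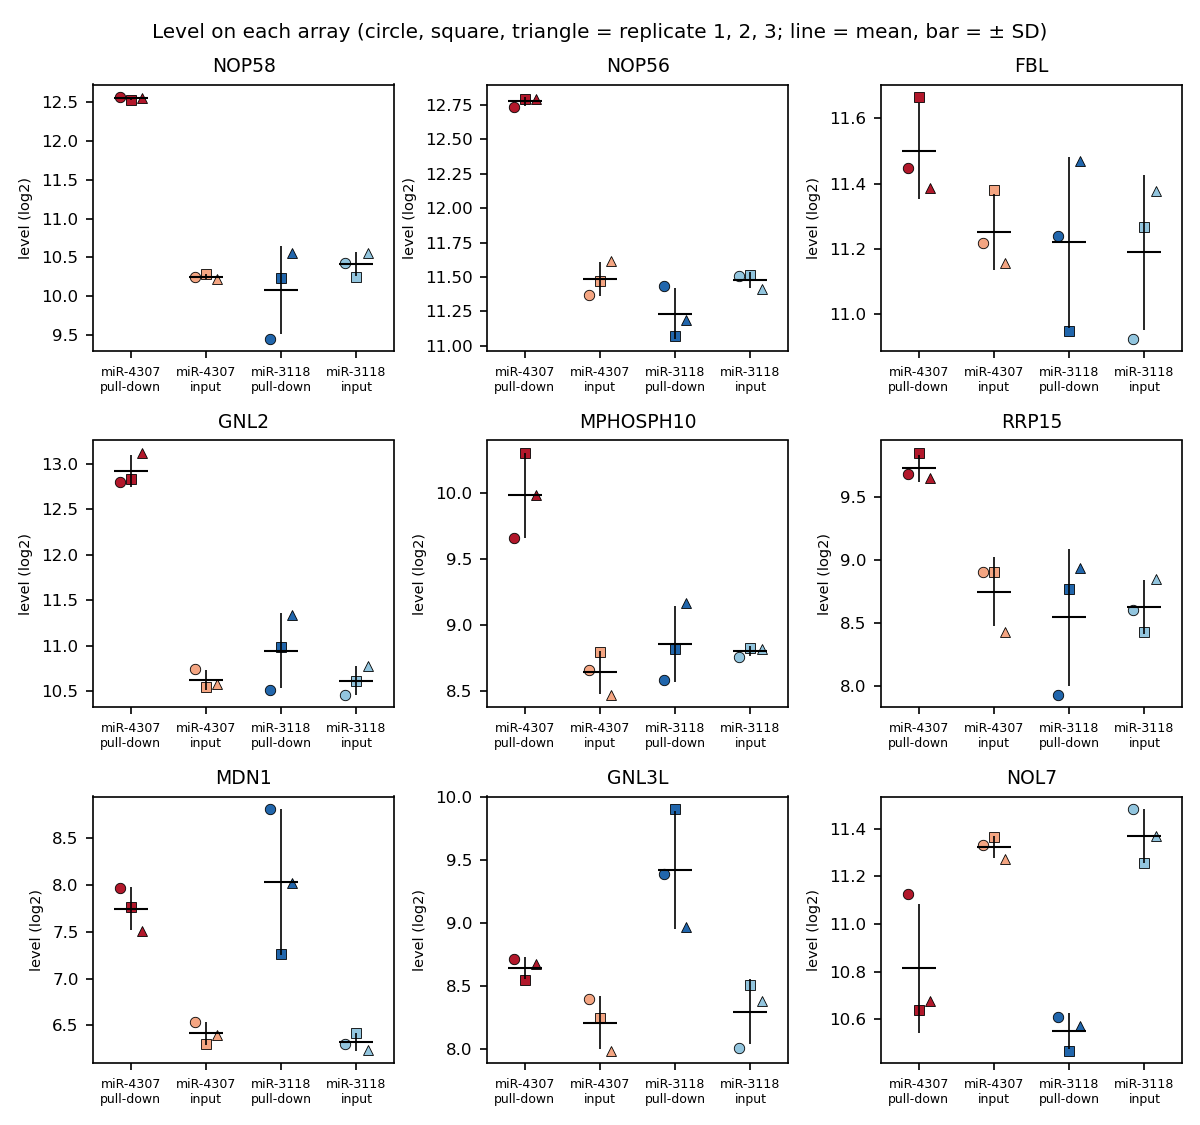
Level (log2, y axis, with its own range in each panel) of 9 genes on each of the 12 arrays, with the mean and ± SD of each group. NOP58, NOP56, GNL2, MPHOSPH10 and RRP15 are high in the miR-4307-3p pull-down alone of the 4 groups, MDN1 is high in both pull-downs, GNL3L is highest in the miR-3118-3p pull-down, FBL differs little, and NOL7 is lower in both pull-downs.

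Among the nucleolar phosphoproteins and chaperones, NOLC1, a chaperone of snoRNPs, was called lower with miR-3118-3p. Its values were 7.73, 7.29 and 7.79 in the pull-down and 7.92, 8.27 and 8.62 in the input, a difference of -0.67 ± 0.19. With miR-4307-3p it differed by -0.24 ± 0.19 and was not called. NCL (nucleolin, 0.35 ± 0.19 with miR-4307-3p and -0.23 ± 0.19 with miR-3118-3p) and NPM3 (a histone chaperone, -0.19 ± 0.15 and -0.25 ± 0.15) were not called with either.

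Of the small subunit processome 17 of 20 genes were measured, and 3 were called higher and 1 lower with miR-4307-3p, 4 higher and 3 lower with miR-3118-3p. The shares of all genes called were 8.04% higher and 6.11% lower with miR-4307-3p, and 12.7% and 10.9% with miR-3118-3p, and nothing is read from the counts by role. MPHOSPH10, which forms a U3 snoRNP subcomplex with IMP3 and IMP4, stood at 9.65, 10.30 and 9.98 on the miR-4307-3p pull-down arrays and 8.66, 8.79 and 8.47 in its input. The difference was 1.34 ± 0.17, and 0.62 by its dimmer probe. In the miR-3118-3p pull-down it stood at 8.58, 8.82 and 9.16, around the 8.76, 8.82 and 8.82 of the input (0.06 ± 0.17). Its 2 partners did not follow it: IMP3 differed by -0.04 ± 0.14 with miR-4307-3p and -0.11 ± 0.14 with miR-3118-3p, and IMP4 by -0.35 ± 0.13 and -0.38 ± 0.13, of which the second was called, though in only 7 of 23 other settings. The groups of IMP4 did not overlap with either microRNA.

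WDR75, of the UTP-A subcomplex that joins the precursor first, was called higher with miR-4307-3p at 0.75 ± 0.17 (0.30 ± 0.17 with miR-3118-3p, not called). NAT10, the acetyltransferase of 18S rRNA, was called higher with both. It stood at 10.11, 10.02 and 9.92 on the miR-4307-3p pull-down arrays, against 9.65, 9.57 and 9.10 (0.58 ± 0.17), and at 10.19, 9.68 and 10.07 on the miR-3118-3p pull-down arrays, against 9.21, 9.63 and 9.58 (0.51 ± 0.17). The groups of NAT10 did not overlap, narrowly with miR-3118-3p, and without pull-down replicate 1 that difference was 0.40 and not called.

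NOP14, UTP15 and KRR1 had higher values in the miR-3118-3p pull-down. NOP14, which acts with the U3 particle, stood at 9.42, 9.59 and 8.61 in that pull-down and 8.39, 8.23 and 8.51 in the input (0.83 ± 0.19). Its pull-down replicate 3 lay only just above the inputs. With miR-4307-3p NOP14 differed by 0.41 ± 0.19 and was not called. Its dimmer probe gave 0.68 with miR-4307-3p and 0.35 with miR-3118-3p. In a fit over every probe the first of these was called and the second was not, the reverse of the brighter probe. UTP15, of the UTP-A subcomplex, stood at 7.16, 7.64 and 7.44 on the miR-3118-3p pull-down arrays and 6.59, 6.67 and 6.92 in the input (0.68 ± 0.16, against 0.02 ± 0.16 with miR-4307-3p). KRR1, which has a KH domain, stood at 6.72, 6.96 and 6.94, against 6.16, 6.28 and 6.56 (0.54 ± 0.13, and 0.03 ± 0.13 with miR-4307-3p). Both genes are among the 5 members whose mean input level was under 7, where the lowest input value of the whole table is 5.69, and the deposited values hold no measure of background.

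NOL7, also a processome protein, had the lowest difference of all members with miR-3118-3p. It stood at 11.13, 10.64 and 10.68 on the miR-4307-3p pull-down arrays and 11.33, 11.37 and 11.27 in the input (-0.51 ± 0.14). With miR-3118-3p the values were 10.61, 10.46 and 10.57 in the pull-down and 11.49, 11.26 and 11.37 in the input (-0.82 ± 0.14). All 6 pull-down values of NOL7 lay under all 6 input values. UTP3, which stood at 7.51, 7.47 and 8.01 on the miR-3118-3p pull-down arrays and 8.19, 8.39 and 8.33 in its input, differed by -0.64 ± 0.19 there and by 0.04 ± 0.19 with miR-4307-3p.

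The other 7 processome genes were not called with either microRNA. HEATR1 (the human UTP10, -0.03 ± 0.16 with miR-4307-3p and 0.27 ± 0.16 with miR-3118-3p), RRP9 (the U3-specific WD repeat protein, 0.08 ± 0.14 and 0.11 ± 0.14) and the GTPase BMS1 (0.22 ± 0.19 and -0.02 ± 0.19) lay near 0. NOL6 (-0.15 ± 0.16 and -0.31 ± 0.16) and UTP18 of the UTP-B subcomplex (-0.23 ± 0.21 and -0.24 ± 0.21) lay below it with both. NOL11 had opposite signs, -0.39 ± 0.21 with miR-4307-3p and 0.29 ± 0.21 with miR-3118-3p. UTP6, a UTP-B protein, differed by -0.43 ± 0.21 and -0.28 ± 0.21. With the replicate number as a block within each microRNA, UTP6 and NOL11 were called lower with miR-4307-3p at the same differences.

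For the late steps of the small subunit, 3 of 6 genes were called higher with miR-4307-3p (8.04% of all genes) and 0 with miR-3118-3p (12.7% of all genes). PNO1 differed by 0.76 ± 0.16 with miR-4307-3p and 0.20 ± 0.16 with miR-3118-3p. NOB1, the endonuclease that makes the 3' end of 18S rRNA and binds PNO1, differed by 0.61 ± 0.18 and 0.15 ± 0.18, and the export factor LTV1 by 0.56 ± 0.18 and 0.34 ± 0.18. The call of LTV1 with miR-4307-3p lay close to the threshold (limma, adjusted p 0.048). All 3 genes had pull-down values above every input value with miR-4307-3p. The difference of enrichments was not called for any of them, at 0.55 ± 0.23, 0.47 ± 0.25 and 0.23 ± 0.25. The kinase RIOK1 differed by 0.38 ± 0.15 and 0.27 ± 0.15, and its dimmer probe went the other way with both microRNAs, at -0.23 and -0.51. The second of these was called lower in a fit over every probe. RIOK1 was called higher with miR-4307-3p when the replicate number was a block within each microRNA. TSR1 (-0.01 ± 0.12 and 0.16 ± 0.12), which resembles GTPases, and the export factor RRP12 (-0.05 ± 0.24 and -0.05 ± 0.24) were not called.

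The GTPases and the ATPase of the large subunit all had positive differences with both microRNAs, over 4 of 5 genes. GNL2, whose yeast relative is a GTPase that prepares the large subunit for export, stood at 12.81, 12.83 and 13.13 on the miR-4307-3p pull-down arrays and 10.75, 10.55 and 10.57 in the input, a difference of 2.30 ± 0.18. In the miR-3118-3p pull-down it stood at 10.51, 10.99 and 11.34, against 10.46, 10.61 and 10.78 (0.33 ± 0.18, not called). The second set overlapped, and its difference was 0.55 and called without pull-down replicate 1. GNL3L, a nucleostemin relative, showed the reverse order: 8.71, 8.55 and 8.67 on the miR-4307-3p pull-down arrays against 8.40, 8.25 and 7.98 in the input (0.43 ± 0.20, not called), and 9.39, 9.91 and 8.97 on the miR-3118-3p pull-down arrays against 8.01, 8.50 and 8.38 (1.12 ± 0.20). Its second probe, at 6.05 in the miR-4307-3p input, gave 0.01 with miR-4307-3p and 0.10 with miR-3118-3p.

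MDN1 encodes midasin, a very large AAA ATPase that strips assembly factors off the large subunit. It stood at 7.98, 7.77 and 7.51 on the miR-4307-3p pull-down arrays and 6.54, 6.30 and 6.40 in the input (1.34 ± 0.26). With miR-3118-3p it stood at 8.82, 7.26 and 8.02 in the pull-down and 6.30, 6.42 and 6.23 in the input (1.71 ± 0.26). Not 1 of its 6 input values reached the lowest pull-down value, but the miR-3118-3p pull-downs spread widely, and without replicate 1 that difference was 1.32. MDN1 is also among the 5 members with a mean input level under 7, at 6.41 with miR-4307-3p and 6.32 with miR-3118-3p, near the lowest input value of the table, so its sizes carry the same limit as those of UTP15 and KRR1. The difference of enrichments for MDN1 was -0.38 ± 0.37 and not called. GTPBP4 differed by 0.35 ± 0.21 with miR-4307-3p and 0.15 ± 0.21 with miR-3118-3p, not called.

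In the PeBoW complex, which processes the precursor of the large subunit rRNAs, BOP1 was called lower with both microRNAs. It stood at 10.47, 10.14 and 10.11 on the miR-4307-3p pull-down arrays and 11.07, 10.82 and 10.59 in the input (-0.58 ± 0.17), and at 9.89, 9.62 and 10.20 on the miR-3118-3p pull-down arrays and 10.38, 10.76 and 10.64 in the input (-0.69 ± 0.17). Its groups did not overlap. PES1 differed by -0.07 ± 0.18 with miR-4307-3p and -0.60 ± 0.18 with miR-3118-3p, of which the second was called. WDR12 differed by 0.22 ± 0.13 and -0.17 ± 0.13 and was not called. The subunits were not tested against each other.

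Of the other large subunit factors 14 of 15 were measured. RRP15 stood at 9.68, 9.85 and 9.65 on the miR-4307-3p pull-down arrays and 8.91, 8.90 and 8.43 in the input (0.98 ± 0.22). In the miR-3118-3p pull-down it stood at 7.93, 8.77 and 8.94, against 8.60, 8.43 and 8.85 (-0.08 ± 0.22). Replicate 1 was again the lowest of the 12 values of the gene. NOL8 stood at 9.32, 9.59 and 9.60 on the miR-4307-3p pull-down arrays and 8.75, 8.45 and 8.41 in the input (0.97 ± 0.15, and 0.85 by its other probe). With miR-3118-3p it stood at 8.35, 8.60 and 8.74 in the pull-down and 8.63, 8.36 and 8.68 in the input (0.00 ± 0.15, and -0.37 by its other probe).

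NOP16 was the lowest member with miR-4307-3p, at 8.30, 7.97 and 7.92 in the pull-down and 8.81, 8.71 and 8.59 in the input (-0.64 ± 0.20). With miR-3118-3p it differed by -0.48 ± 0.20 and was not called, its pull-down replicate 1 at 8.80 lying within the input range while replicates 2 and 3 stood at 7.86 and 8.005. The second NOP16 probe gave -0.80 with miR-4307-3p and -0.97 with miR-3118-3p, both called lower in a fit over every probe. On that probe pull-down replicate 1 of miR-3118-3p stood at 7.95, under every input value. Whether NOP16 was called with miR-3118-3p thus depended on the probe. SURF6 stood at 9.64, 9.52 and 9.46 on the miR-4307-3p pull-down arrays, against 9.47, 9.31 and 9.10 (0.24 ± 0.16, not called), and at 8.50, 8.50 and 9.01 on the miR-3118-3p pull-down arrays, against 9.02, 9.34 and 9.35 (-0.57 ± 0.16, called). The SURF6 groups overlapped with miR-4307-3p and did not with miR-3118-3p. RRS1, which brings the 5S rRNA particle into the large subunit, differed by -0.01 ± 0.16 with miR-4307-3p and -0.50 ± 0.16 with miR-3118-3p, the second called.

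The remaining 9 of these factors were called with neither microRNA. CEBPZ, the human relative of yeast Noc1, came closest at 0.60 ± 0.20 with miR-4307-3p, beside 0.35 ± 0.20 for miR-3118-3p. Its 3 miR-4307-3p pull-down values lay above the input values, and it was called higher with miR-4307-3p under either replicate block. NOC3L (0.28 ± 0.22 and 0.42 ± 0.22) was positive with both, while its partner NOC2L (-0.01 ± 0.19 and 0.06 ± 0.19) was among the dim members. BRIX1 (0.28 ± 0.14 and -0.13 ± 0.14), PPAN (0.30 ± 0.17 and -0.05 ± 0.17) and RRP1B (0.12 ± 0.11 and -0.18 ± 0.11) were above 0 with miR-4307-3p and below it with miR-3118-3p. NIP7 (-0.14 ± 0.20 and 0.48 ± 0.20) and MRTO4 (-0.07 ± 0.16 and 0.20 ± 0.16) had the opposite signs. The rRNA methyltransferase NOP2 differed by -0.22 ± 0.19 and -0.16 ± 0.19.

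Setting the enrichments against each other, miR-4307-3p minus miR-3118-3p, 7 of the 54 genes had a called positive difference and 0 a called negative one, where 4.73% and 2.86% of all genes did. This contrast was also known when the genes were listed. The values were 2.63 ± 0.28 for NOP58, 1.97 ± 0.25 for GNL2, 1.54 ± 0.17 for NOP56, 1.29 ± 0.24 for MPHOSPH10, 1.06 ± 0.31 for RRP15, 0.96 ± 0.21 for NOL8 and 0.81 ± 0.22 for SURF6. Apart from SURF6, the genes were called higher with miR-4307-3p and not called with miR-3118-3p, while SURF6 was not called with miR-4307-3p and was called lower with miR-3118-3p. The most negative values, -0.69 ± 0.28 for GNL3L, -0.68 ± 0.30 for NOL11 and -0.66 ± 0.22 for UTP15, were not called. For the miR-3118-3p pull-down, leaving out array 1 gave 4 genes with a called negative difference, and leaving out array 3 gave 2. NOP58, GNL2, NOP56, MPHOSPH10 and NOL8 were called in all 22 other settings that give this contrast, SURF6 in 14 and RRP15 in 12.

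**Figure D3:**
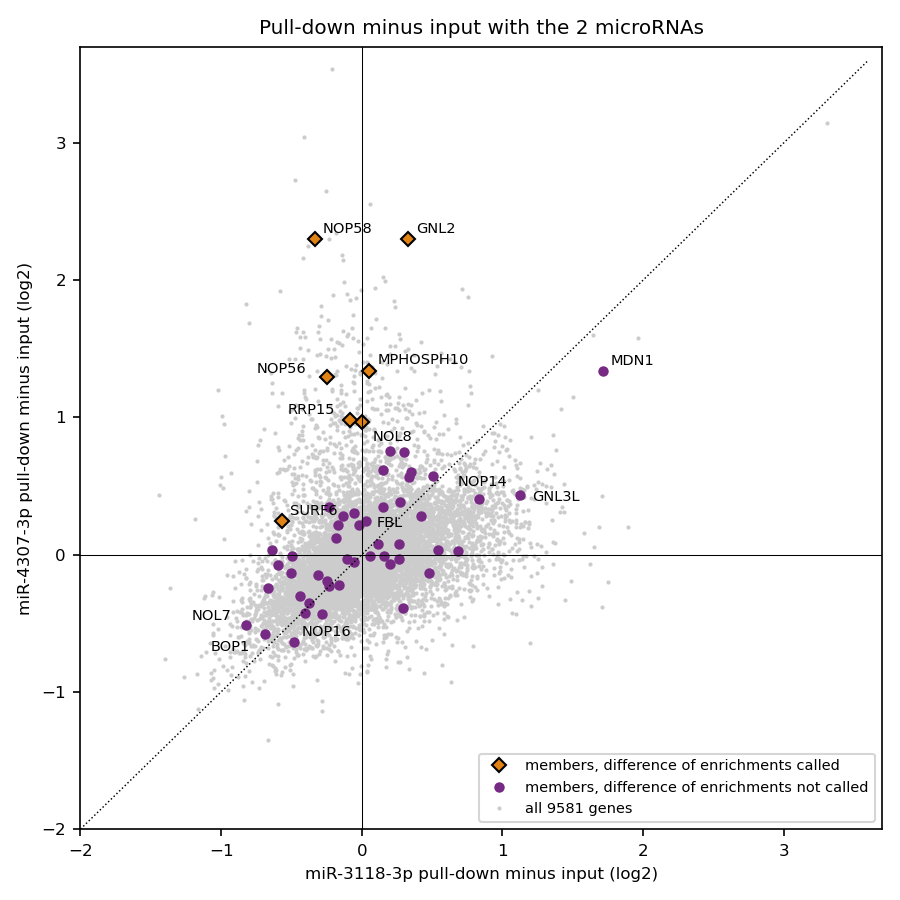
Pull-down minus input (log2) with miR-4307-3p (y axis) against miR-3118-3p (x axis) for the 54 genes over all 9581 genes in grey, with a dotted line where both are equal. The 7 genes with a called difference of enrichments (orange diamonds) lie above the line, NOP58 and GNL2 highest, and MDN1 lies apart at 1.34 and 1.71.

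Across the 54 genes the differences with miR-4307-3p and with miR-3118-3p correlated at Pearson's r = 0.376 and Spearman's rho = 0.510, beside 0.351 and 0.444 across all 9581 genes. Genes are not independent replicates, and all points share the same 12 arrays. The members were brighter than most genes, with a median input level of 9.18 against 7.76 over all genes, and 44 of 54 lay above that median. Over the 54 genes the mean input level correlated with the difference at r = -0.03 and rho = -0.13 with miR-4307-3p, beside r = -0.09 and rho = -0.13 over all genes. For miR-3118-3p the values were r = -0.38 and rho = -0.31 for the 54 genes, beside r = -0.11 and rho = -0.13 over all genes. The correlations were not tested against each other.

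Of the 14 genes with several probes, all probes had the same sign for 13 with miR-4307-3p and 12 with miR-3118-3p. RIOK1 was the exception with both and NOL8 the other with miR-3118-3p. In a fit over every probe, all probes of NOP56, NOL8, NOP16 and MPHOSPH10 were called with miR-4307-3p. The calls of NHP2 with both microRNAs, and of GNL3L, NOP14 and NOP10 with miR-3118-3p, rested on the brightest probe alone.

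**Figure D4:**
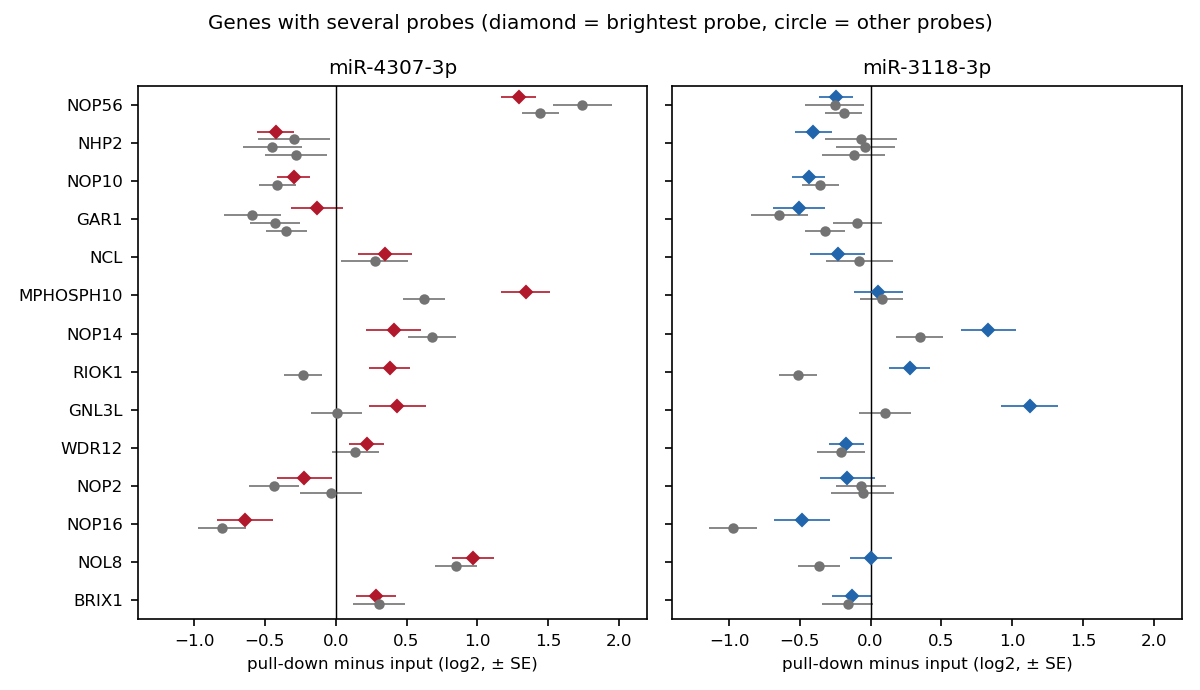
Pull-down minus input (log2, ± SE, n = 3 arrays per group) for each probe of the 14 genes with several probes, miR-4307-3p on the left and miR-3118-3p on the right, with a diamond for the brightest probe and circles for the others. The 3 probes of NOP56 lie between 1.29 and 1.74 with miR-4307-3p, and the probes of RIOK1 lie on both sides of 0.

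Between the inputs no difference was detectable. The difference of means uses the 6 input arrays, while its SE and p come from the spread shared by all 12 arrays, pull-downs included. With the spread of the 6 input arrays alone, 0 members were called as well. Of the 54 genes 0 were called between the miR-4307-3p input and the miR-3118-3p input (limma), as were 0% of all genes. At an unadjusted p under 0.05 there was 1 member, TSR1, beside 160 of 9581 genes (1.67%). TSR1 stood at 7.65, 7.62 and 7.63 in the miR-4307-3p input and 7.48, 7.17 and 7.19 in the miR-3118-3p input, a difference of 0.35 ± 0.12. NOP58 (-0.16 ± 0.20), NOP56 (0.01 ± 0.12), GNL2 (0.01 ± 0.18) and MDN1 (0.09 ± 0.26) had input levels that differed by less than their SE. The differences of members between inputs ranged from -0.33 to 0.35, and the inputs did not overlap for 2 members (9.23% of all genes), TSR1 higher (5.44%) and NIP7 lower (3.79%) in the miR-4307-3p input. The levels are shares among the measured RNA of bulk cultures, so they show neither cell number nor RNA per cell.

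Other genes of ribosome production were read from a second list of 115, of which 107 were measured. With miR-4307-3p, 21 (19.6%) were called higher and 6 (5.61%) lower, where 8.04% and 6.11% of all genes were. With miR-3118-3p, 16 (15%) were called higher and 13 (12.1%) lower, near the 12.7% and 10.9% of all genes. This list too was chosen with earlier results of these data known, so nothing is read from those counts. The median difference was 0.03 and -0.04. DDX10, a helicase of the small subunit, had the highest value with miR-4307-3p at 1.89 ± 0.18, and -0.20 ± 0.18 with miR-3118-3p. RSL1D1 (1.71 ± 0.20 and -0.24 ± 0.20), PA2G4 (1.56 ± 0.16 and -0.02 ± 0.16), RBM28 (1.55 ± 0.21 and -0.18 ± 0.21) and NSA2 (1.46 ± 0.15 and -0.30 ± 0.15), all listed as large subunit factors, followed. These 5 genes resembled NOP58, NOP56 and MPHOSPH10 in being called with miR-4307-3p and not with miR-3118-3p, and their differences of enrichments were all called. They were named for having the largest called differences, so the likeness is only a description.

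With miR-3118-3p the sizes were smaller. POLR1B, the second largest subunit of RNA polymerase I, had 1.04 ± 0.14, against 0.25 ± 0.14 with miR-4307-3p. UTP11, a processome protein, was called in opposite directions, 1.01 ± 0.17 with miR-4307-3p and -0.99 ± 0.17 with miR-3118-3p. So were RBM34 (0.84 ± 0.16 and -0.73 ± 0.16), DDX27 (0.78 ± 0.18 and -0.59 ± 0.18) and TAF1D (0.80 ± 0.15 and -0.74 ± 0.15). DIMT1 was called the other way round, at -0.58 ± 0.13 and 0.58 ± 0.13. NOL9, a polynucleotide kinase, was higher with both (0.49 ± 0.14 and 0.96 ± 0.14), and TMA16 (-0.00 ± 0.23 and 0.87 ± 0.23) and WDR36 (0.19 ± 0.20 and 0.87 ± 0.20) with miR-3118-3p. Of all genes, 8.04% were called higher and 6.11% lower with miR-4307-3p, and 12.7% and 10.9% with miR-3118-3p, and the counts by role are small and given as a description. By role, 11 of 40 large subunit factors were called higher and 0 lower with miR-4307-3p, 3 and 0 of 7 small subunit helicases, 2 and 2 of 27 small subunit factors, 4 and 1 of 15 genes of RNA polymerase I transcription, 1 and 2 of 9 snoRNP assembly factors, and 0 and 1 of 9 proteins of RNase MRP, the enzyme that cuts the precursor. With miR-3118-3p the large subunit factors had 7 higher and 3 lower calls, the helicases 1 and 0, the small subunit factors 4 and 5, RNA polymerase I 1 and 4, snoRNP assembly 2 and 1, and RNase MRP 1 and 0. The count of 21 fell to 13 without input replicate 3 of miR-4307-3p, and for miR-3118-3p that of 16 to 9 when pull-down replicate 2 was left out, to 10 for input replicate 1 and to 7 for input replicate 2. Leaving out array 1 of the pull-down with miR-3118-3p gave 12 lower calls with miR-4307-3p and 20 with miR-3118-3p.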

How the data were processed

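RNA of 12 Illumina bead arrays, 3 in each of 4 groups, was analysed. The log2 values are those the authors deposited in the series matrix, and the submitters' processing notes name lumi 2.2.1. The sources used here do not give their normalization, transform or probe filter. A table of signals before normalization has 12 columns whose names match no label, so it was not used and the planned background correction could not be run. RNA was labelled with biotin for hybridization in pull-downs and inputs alike, per the labels' protocols. The platform annotation gave 1 symbol to 12354 of the 15025 probes and several to 2, and it did not list 2669. Of the first, 12352 were named through gene identifiers and 2 symbols were updated. The probe with the highest mean stood for a gene, which left 9581 genes.

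Differences came from limma 3.58.1 (statmod 1.5.0, R 4.3.3), lmFit and eBayes over 4 group means and 12 arrays with 8 residual degrees of freedom, two-sided, with Benjamini-Hochberg adjustment over all genes and a threshold of 0.05. The fit was tested on simulated data. Figures were drawn with matplotlib 3.10.9 (Python 3.11.15). Each pull-down was compared with its input, then the enrichments and the inputs of both microRNAs with each other. The number of arrays limits the precision. Every measured member is named once with its difference; values of every array are given for the 6 highest and 4 lowest called members whose groups do not overlap in each pull-down, the 4 highest and 4 lowest called for the difference of enrichments, and all snoRNP genes, and the 5 largest called differences are named from the second list. TSR1 and NIP7 in the inputs, and RBM34, DDX27, TAF1D and DIMT1 from the second list, were added after their values were seen. The members and lists were chosen with earlier results of these data known. As a check of pairing, the deviations from the group means of pull-down and input arrays with 1 number were correlated. In replicate order, the miR-4307-3p arrays gave correlations of 0.204, 0.342 and 0.286. Those of the miR-3118-3p arrays were 0.344, 0.0736 and 0.476. Such values do not settle whether the numbers in the titles pair the arrays. The main fit had no block for the replicate number, so its SEs and calls leave pairing out of account.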

Additional observations from a re-analysis of the deposited data

Results flagged for a closer look

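A difference between the enrichments with both microRNAs, miR-4307-3p minus miR-3118-3p, passed the threshold over all genes for 7 members: 2.63 for NOP58, 1.54 for NOP56, 1.29 for MPHOSPH10, 1.97 for GNL2, 0.96 for NOL8, 1.06 for RRP15 and 0.81 for SURF6. The genes were listed with this contrast known, so the values are a description. Groups of 3 arrays are too small for the check of single outlying values.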

How the results depend on the processing

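The count of 12 members called higher with miR-4307-3p stayed within 1.5 times over 23 other settings, and 9 to 14 were called when 1 array was left out; the 7 positive differences of enrichments likewise gave 5 to 10. No called value of a member changed sign in any setting run. The other member counts moved, and the cause was not tested. The 4 lower calls with miR-4307-3p became 8 with array weights, 7 with the spread of those 6 arrays alone, 2 with quantile normalization, 0 with cyclic loess and 0 to 4 without 1 array. The 6 higher and 10 lower calls with miR-3118-3p became 15 higher with array weights, 3 and 3 with the spread of those 6 arrays alone, and 5 to 14 and 2 to 12 without 1 array. The 0 negative differences of enrichments became 4 with array weights, 2 with the replicate block within each microRNA and 0 to 4 without 1 array.

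For the second list, the same settings were applied after seeing the data. With miR-4307-3p the 21 higher calls were 13 to 24 without 1 array, and the 6 lower calls became 14 counted over every probe, 18 with array weights, 14 with the spread of those arrays, 11 with the replicate block within each microRNA and 3 to 12 without 1 array. With miR-3118-3p the 16 higher calls became 25 over every probe, 7 with the spread of those arrays and 7 to 20 without 1 array. The 13 lower calls became 5 with that spread, 22 with the replicate block within each microRNA and 8 to 20 without 1 array. The 12 positive differences of enrichments were 11 to 18 without 1 array, and the 4 negative ones became 7 over every probe, 11 with array weights, 8 with the block within each microRNA and 1 to 11 without 1 array. The replicate block shared by both microRNAs gave 13 higher and 4 lower member calls with miR-4307-3p, and 6 and 10 with miR-3118-3p. With the block within each microRNA these were 14 and 6, and 8 and 12. Beside the calls given in the report, GAR1, NOP16, NIP7 and NOC3L were then called with miR-3118-3p. Whether the numbers pair the arrays is not settled for either microRNA. Background correction was not run. Settings without some arrays leave a group with 2 arrays and the shared spread.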
